A study of Rattus norvegicus with 12 samples.

Results

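Genes of B cells and of secreted antibody were followed in the whole lung of rats with congestive heart failure and of sham-operated rats, with and without the mast cell stabilizer ketotifen. The 8 genes were the B cell surface genes Cd79b, Ms4a1, Cd22, Cd37 and Cd38, the intracellular gene Fcrla, and the antibody genes Ighl2 and Jchain. All probe sets that carried one of these symbols in the array annotation were taken. 7 of the 8 genes had a probe set, giving 9 probe sets of the 31099 on the array. Cd38, which encodes an enzyme on the surface of B cells and plasma cells, had no probe set in this annotation and was not analysed here. Fcrla, Ighl2 and Jchain were chosen by their log2 differences between heart failure and sham lungs of placebo rats in earlier results of these data, so their values in that comparison are a description.

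B cells carry a receptor made of a membrane antibody and the signalling pair to which Cd79b belongs, together with surface proteins such as CD20 (Ms4a1), the inhibitory receptor CD22 and the tetraspanin CD37. When a B cell becomes a plasma cell it lowers many of these surface genes and secretes antibody in large amounts, and the joining chain (Jchain) links antibodies of the IgM and IgA classes into polymers. In lung, plasma cells lie mainly around the airways and supply IgA to the airway surface.

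The study held 12 arrays, 1 per lung, with 3 lungs in each of 4 groups of male Sprague-Dawley rats. CHF ketotifen rats had supracoronary aortic banding as juveniles and received ketotifen at 1 mg/kg per day in the drinking water. CHF placebo rats had the banding and placebo (the design text calls them untreated). Sham ketotifen and sham placebo rats had the operation without the clip, with ketotifen or with placebo. Lungs were taken 9 weeks after surgery. Heart failure in this model follows pressure overload of the left heart and is accompanied by pulmonary hypertension. Expression is given as deposited log2 values, on which 1 unit is a doubling of signal, and values under about 4 lie near background. The level of one probe set cannot be set against that of another, and in whole lung fewer cells of a type and less RNA per cell cannot be told apart.

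The surfactant genes that mark lung were bright in every array, with Sftpc between 15.4 and 15.9 and Sftpb between 13.5 and 14.4 on its brighter probe set. The lungs differed in their content of other tissue. The mean level of 5 cardiomyocyte genes was between 2.56 and 2.95 in 9 lungs, against 6.66 in sham ketotifen 1, 10.2 in sham ketotifen 2 and 8.29 in sham placebo 3. The ciliated cell list lay between 4.31 and 6.12 in 10 lungs and reached 7.87 and 9.06 in sham placebo 3 and 2. The difference between 3' and 5' actin probe sets, a measure of RNA quality, ranged between 2.90 and 4.52 and was largest in sham ketotifen 2. It lay between 3.45 and 4.23 in sham placebo lungs and between 3.01 and 3.40 in CHF placebo lungs, without overlap. The ketotifen groups overlapped (2.90 to 3.41 in CHF and 2.91 to 4.52 in sham lungs). The part of RNA quality in the differences between groups was not tested. CHF ketotifen lungs 1 and 3 were the most alike pair of any group (r = 0.993 over kept probe sets).

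The label B cell was only partly borne out by the defining B cell markers. Cd79b was at or above 4 in 1 of 12 lungs, sham ketotifen 2 (5.71), and Cd22 in 1 of 12, sham ketotifen 1 (4.57). Of the 22 measured genes of a wider B cell list, 6 stayed below the filter, which asked for 4 or more in at least 3 lungs. Among these, Vpreb3 never exceeded 2.04, Fcer2 exceeded 4 in sham ketotifen 2 alone (5.47) and Blk in sham placebo 2 and sham ketotifen 2 (5.94 and 4.14). The lung sham ketotifen 2 therefore held the highest Cd79b, Ms4a1, Fcer2 and Bcl11a (5.89) of the 12. The antibody genes, in contrast, were well above background in every lung, with a lowest value of 7.26 for Ighl2 and 7.98 for the brighter Jchain probe set.

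Promoter sequence is shown for Fcrla and Jchain, which the results turn on and which have an entry in the RefSeq promoter table of build GRCr8, as the 120 bases before the start given in that table. 5 of the 8 genes had an entry. 6 short motifs of lymphoid factors were searched on both strands of the window of 250 bases before to 50 after the start. They were the octamer ATGCAAAT, the Ets core GAGGAA, the E-box CAGGTG, the GATA motif AGATAA, an Ebf motif and an NF-kappaB motif. In this order they occur in 1.78%, 27.6%, 18.8%, 11.6%, 0.834% and 0.111% of all 33469 promoters of the table. Fcrla lies on the minus strand and Jchain on the plus strand. Capitals mark matches.
Fcrla, chr13:85702827-85702946: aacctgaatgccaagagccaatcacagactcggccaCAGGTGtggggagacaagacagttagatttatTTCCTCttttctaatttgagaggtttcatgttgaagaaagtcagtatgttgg
Jchain, chr14:19822856-19822975: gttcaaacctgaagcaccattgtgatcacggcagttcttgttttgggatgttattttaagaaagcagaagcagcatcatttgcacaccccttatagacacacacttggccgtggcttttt
The Fcrla window held the E-box at -84 and the Ets core on the opposite strand at -52, counted from the start in that table. The Jchain window held none of the 6 motifs. The RefSeq span of Fcrla reaches 85702875, so the end of its printed window lies within the gene, and the Ets match lies across that edge. Cd37 and Cd22 also held the Ets core, Cd38 the GATA motif, and the octamer was in none of the 5 promoters. A match is a description of these letters and not a binding site.

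Ighl2, annotated by RefSeq as an antibody variable segment (chr6:140139128-140139739), was higher in CHF than in sham lungs in both treatment arms. With ketotifen the values were 9.69, 9.09 and 10.27 in CHF lungs, against 7.76, 7.26 and 8.27 in sham lungs. The lowest CHF lung lay above the highest sham lung. The difference was 1.92 ± 0.38 log2 units (SE), a 3.77-fold higher level, with a limma adjusted p of 0.01279 and a 95% interval of 1.08 to 2.75. With placebo the values were 10.49, 11.42 and 10.94 in CHF lungs, against 7.81, 8.60 and 8.83 in sham lungs, again without overlap, and the difference was 2.54. Antibody genes form a large family with shared sequence, so the probe set may read related transcripts too.

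**Figure D1:**
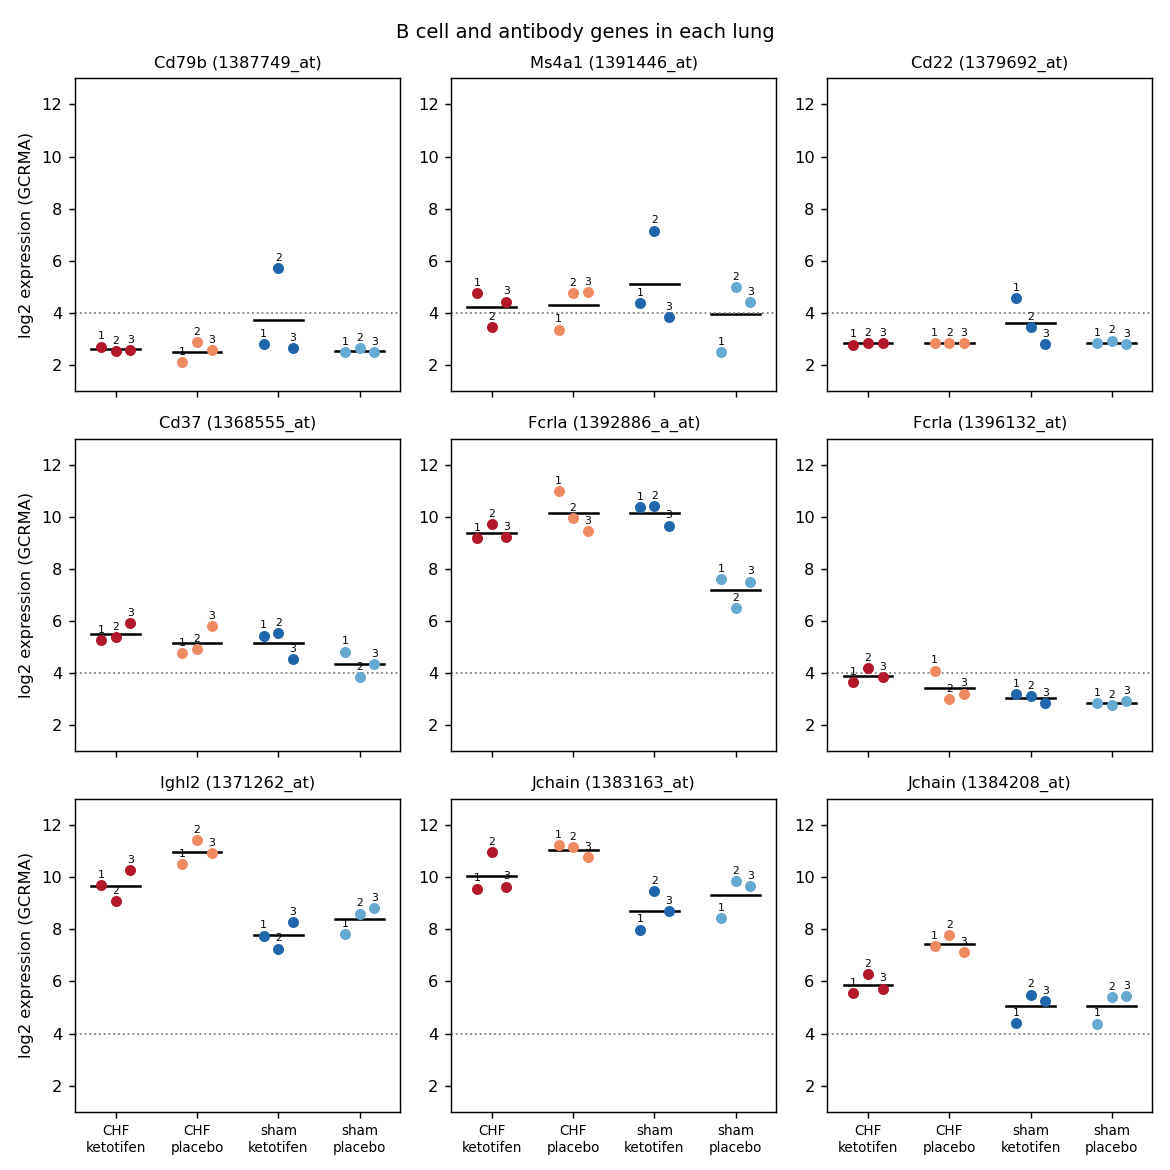
Log2 expression of the 9 probe sets in each lung. Points are lungs with their replicate number, bars are group means (n = 3) and the dotted line is the filter value of 4. Ighl2 lies higher in CHF than in sham lungs in both arms, and the brighter Fcrla probe set is low in sham placebo lungs alone.

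Of the 6 member probe sets that passed the filter, Ighl2 was the 1 called in CHF against sham lungs with ketotifen, where 13% of all 16536 kept probe sets were called. 3 of the 6 had CHF values wholly above sham values, against 19.2% of all kept probe sets. The Ighl2 call was lost when the 3 lungs with cardiomyocyte RNA were left out, 2 of which are sham ketotifen lungs (1.41, adjusted p = 0.2619). That fit held 1 sham ketotifen lung, whose spread was taken from the other groups, and calls over all kept probe sets fell to 43, against 2145 with all lungs. In this comparison the cardiomyocyte list ranged between 2.69 and 2.87 in CHF lungs and between 2.73 and 10.2 in sham lungs, with 0 of 5 genes called. The erythroid list, of which 2 of 4 measured genes were kept, ranged between 8.87 and 9.30 in CHF lungs and between 6.21 and 7.21 in sham lungs. Of these 2 genes 1 was called higher. The mast cell list ranged between 5.87 and 7.12 in CHF lungs and between 5.56 and 5.95 in sham lungs, with 3 of 10 genes called higher and 1 lower. The macrophage list ranged between 9.02 and 9.53 in CHF lungs and between 7.47 and 7.76 in sham lungs, with 8 of 11 genes called higher. The proliferation list ranged between 6.47 and 6.88 in CHF lungs and between 4.24 and 4.29 in sham lungs, with 6 of 7 genes called higher. The part of these differences in that of Ighl2 was not tested.

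Jchain, the joining chain of polymeric antibody (chr14:19822976-19831072), had 2 probe sets that moved together. On the brighter one the values with ketotifen were 9.57, 10.95 and 9.64 in CHF lungs, against 7.98, 9.47 and 8.71 in sham lungs. The groups did not overlap, although CHF lung 1 and sham lung 2 lay close. The difference of 1.34 ± 0.48 did not pass the test (adjusted p = 0.08632). The dimmer probe set gave 5.56, 6.28 and 5.72 in CHF lungs and 4.41, 5.49 and 5.24 in sham lungs, a difference of 0.81 ± 0.36 (adjusted p = 0.1518). With the replicate number as a block, the brighter probe set passed at an adjusted p of 0.03685. With placebo, the brighter probe set had 11.24, 11.17 and 10.78 in CHF lungs and 8.42, 9.86 and 9.66 in sham lungs. The dimmer one had 7.36, 7.79 and 7.13 in CHF lungs and 4.38, 5.40 and 5.44 in sham lungs. Neither placebo comparison overlapped, and the differences were 1.75 and 2.36. 4 of the 6 member probe sets that passed the filter lay wholly higher in CHF placebo lungs, against 12.7% of all kept probe sets, and nothing is read from this, since the comparison chose members.

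Fcrla, an intracellular protein of B cells related to Fc receptors (chr13:85693177-85702875), followed another pattern. On its brighter probe set the values were 9.18, 9.72 and 9.23 in CHF ketotifen lungs, 11.0, 9.95 and 9.44 in CHF placebo lungs, 10.38, 10.41 and 9.66 in sham ketotifen lungs, and 7.61, 6.49 and 7.52 in sham placebo lungs. Sham placebo lungs stood below all others. This probe set was well above background in every lung, unlike those of Cd79b and Cd22. Over the 12 lungs it correlated at 0.15 with Ms4a1 and at 0.59 with Cd37. Once each group was centred on its own mean, these were -0.33 and 0.09. Whether its signal came from B cells was not tested. CHF lungs were 2.93 higher than sham lungs with placebo, whereas with ketotifen the difference was -0.77 ± 0.41 (adjusted p = 0.2194, 95% interval -1.67 to 0.12). The 2 differences lay -3.70 apart. For that interaction, 0.369% of all kept probe sets were called. The second Fcrla probe set was below the filter and under 4 in most lungs, so no direction is read from it. It averaged 3.90 ± 0.28 in CHF ketotifen lungs, 3.44 ± 0.58 in CHF placebo, 3.06 ± 0.18 in sham ketotifen and 2.85 ± 0.08 in sham placebo lungs (SD, n = 3 each).

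In sham rats, Fcrla was 2.94 ± 0.41 log2 units higher with ketotifen than with placebo, a 7.69-fold difference (adjusted p = 0.02765). It was the 1 of 6 member probe sets called there, where 0.0847% of all kept probe sets were called, and the 1 of 6 with values wholly higher, against 7.5% of all. This comparison shares its sham placebo lungs with the one that chose Fcrla, and those lungs are the low ones in both. A higher level with ketotifen is therefore partly built in, and neither the call nor these counts are independent of the choice. The call was lost in 6 of 11 alternative settings and in 7 of 12 runs that left out 1 lung, with differences between 2.41 and 3.19. The NK cell list ranged between 5.72 and 7.42 in sham ketotifen lungs and between 3.42 and 6.17 in sham placebo lungs, and the T cell list between 4.58 and 5.69 and between 3.94 and 4.62, with 0 of 7 genes called in each list. The mast cell list ranged between 5.56 and 5.95 in sham ketotifen lungs and between 4.45 and 5.22 in sham placebo lungs, with 0 of 10 genes called and 5 at an unadjusted p under 0.05. Their part in the Fcrla difference was not tested.

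**Figure D2:**
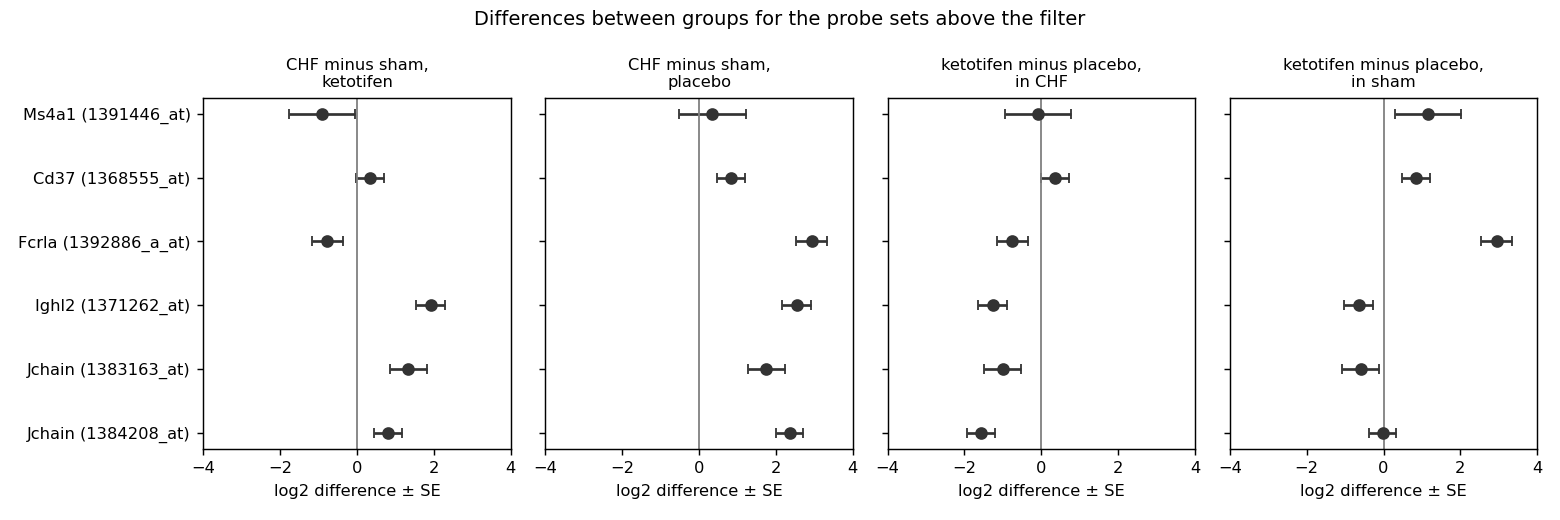
Log2 differences (points) with the standard error of the limma fit (bars) for the 6 probe sets above the filter, in 4 comparisons of 3 against 3 lungs. Ighl2 and both Jchain probe sets are positive in both CHF minus sham panels, and Fcrla is large with placebo and in the sham drug comparison.

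None of the surface genes passed the test in any of the 3 comparisons tested, by limma over the 2 probe sets above the filter. Of all kept probe sets, 13% were called in CHF against sham with ketotifen. For the drug 1.22% were called in CHF rats and 0.0847% in sham rats, so little is read from the lack of calls. There was 1 unadjusted p under 0.05 (Cd37, ketotifen against placebo in sham rats, 0.84 higher). In that comparison 14% of all kept probe sets had such a p. Ms4a1, which encodes CD20 (chr1:217331274-217351934), had 4.77, 3.45 and 4.43 in CHF ketotifen lungs, 3.36, 4.77 and 4.80 in CHF placebo lungs, 4.39, 7.15 and 3.84 in sham ketotifen lungs, and 2.5, 4.99 and 4.41 in sham placebo lungs. All 4 groups overlapped. The difference between CHF and sham lungs with ketotifen was -0.91 ± 0.86 (adjusted p = 0.5014, 95% interval -2.82 to 0.99), and without sham ketotifen 2 it was 0.10. Cd37, a tetraspanin of B cells and other leukocytes (chr1:104855622-104861111), had 5.27, 5.37 and 5.92 in CHF ketotifen lungs, 4.77, 4.92 and 5.82 in CHF placebo lungs, 5.45, 5.54 and 4.54 in sham ketotifen lungs, and 4.83, 3.84 and 4.34 in sham placebo lungs. Its CHF minus sham difference was 0.35 ± 0.37 with ketotifen (adjusted p = 0.5538, 95% interval -0.47 to 1.16) and 0.83 with placebo, and the groups overlapped in both arms. Cd79b (chr10:91739134-91742312) averaged 2.61 in CHF ketotifen, 2.52 in CHF placebo, 3.73 in sham ketotifen and 2.54 in sham placebo lungs. Cd22 (chr1:95243785-95270430) averaged 2.83, 2.84, 3.61 and 2.86 in the same groups, so that neither gave a measurable level in most lungs.

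A level per lung was made for the antibody genes (Ighl2 and Jchain) and for the surface genes above the filter (Ms4a1 and Cd37), each gene centred on its mean over the 12 lungs. The antibody minus surface level was 0.23 ± 0.54 in CHF ketotifen lungs, 1.5 ± 0.65 in CHF placebo lungs, -1.68 ± 1.15 in sham ketotifen lungs and -0.06 ± 0.23 in sham placebo lungs (SD, n = 3 each). CHF lungs lay 1.91 above sham lungs with ketotifen and 1.56 above them with placebo. In both arms the antibody level differed more than the surface level. The antibody level was 0.37 in CHF against -1.25 in sham lungs with ketotifen and 1.51 in CHF against -0.63 in sham lungs with placebo. The surface level was 0.14 against 0.42 with ketotifen and 0.01 against -0.58 with placebo, so its direction differed between the arms. In sham ketotifen 2 it reached 1.62. Ms4a1 was at or above 4 in 8 of 12 lungs and lay near background in the others, so the 2 levels are not measured alike. This score was built from antibody genes chosen for their difference with placebo, so the larger antibody difference is partly built in, and it carries no test.

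**Figure D3:**
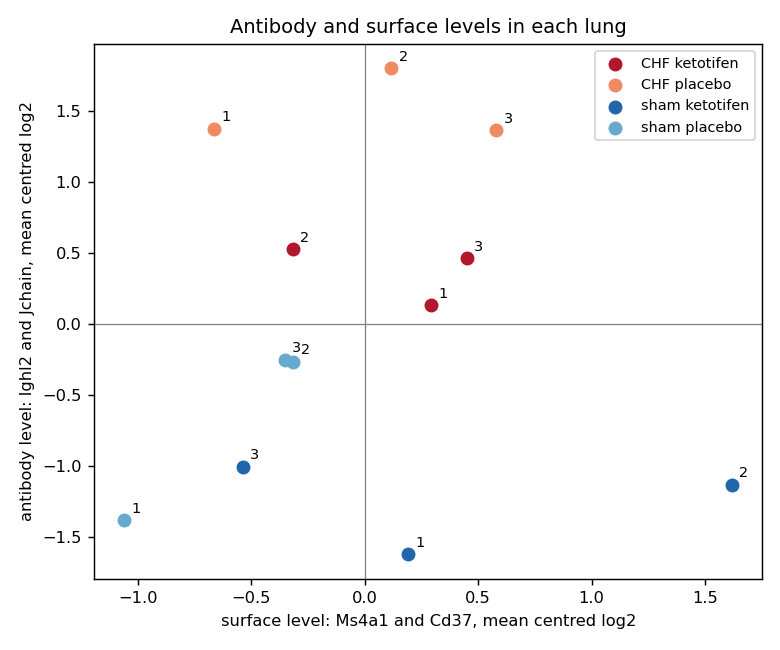
Antibody level against surface level in each lung, both as mean centred log2 values. All 6 CHF lungs lie above 0 on the antibody axis and all 6 sham lungs below it, while the groups mix along the surface axis. Ighl2 and Jchain were chosen by their difference with placebo, so the separation of the placebo lungs is built in.

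Ketotifen was compared with placebo within CHF rats. This comparison reuses the CHF placebo lungs whose high values chose Ighl2 and Jchain, so lower values with ketotifen are partly built in and the tests are not independent of the choice. All 3 antibody probe sets had lower means with ketotifen, none past the test: 0 of 6 member probe sets were called by limma and 2 had an unadjusted p under 0.05, where 1.22% of all kept probe sets were called and 17.1% had such a p. Ighl2 was 9.69, 9.09 and 10.27 with ketotifen against 10.49, 11.42 and 10.94 with placebo, a difference of -1.27 ± 0.38 (adjusted p = 0.1221). The dimmer Jchain probe set differed by -1.57 ± 0.36 (adjusted p = 0.06224), and the brighter one by -1.01 ± 0.48 (adjusted p = 0.307). With the replicate number as a block, the dimmer Jchain probe set passed (adjusted p = 0.02183), and with array weights that did not converge it, Ighl2, the brighter Jchain probe set and Fcrla all did (adjusted p = 0.0001143, 0.002859, 0.00168 and 0.02376). Over the settings, calls among all 16536 kept probe sets ranged between 60 and 5576 here, against 201 in the main fit, so little is read from these member calls. Fcrla differed by -0.76 ± 0.41 (adjusted p = 0.3678), Cd37 by 0.35 ± 0.37 (adjusted p = 0.6674) and Ms4a1 by -0.09 ± 0.86 (adjusted p = 0.9735). In sham rats, Ighl2 differed by -0.65 ± 0.38 (adjusted p = 0.4689) and the Jchain probe sets by -0.60 ± 0.48 and -0.03 ± 0.36 (adjusted p = 0.6009 and 0.9828).

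The wider lists were read beside the members. Of 16 kept genes of the B cell list, 3 rose and 1 fell in CHF against sham lungs with ketotifen, where 13% of all kept probe sets were called, with a median difference of 0.31 against -0.03 over all kept probe sets. Btk, a kinase of the B cell receptor pathway that myeloid cells also use, had 6.05, 6.26 and 6.10 in CHF lungs and 4.44, 5.03 and 4.47 in sham lungs (adjusted p = 0.0283). Cd83, an activation marker of B cells and dendritic cells, was 2.19 higher (adjusted p = 0.01168), and Siglec10, an inhibitory receptor of B cells and other leukocytes, was 1.98 higher (adjusted p = 0.03752). Bank1, a B cell scaffold protein, had 4.22, 5.29 and 4.03 in CHF lungs and 8.10, 8.29 and 7.28 in sham lungs, and fell by 3.37 (adjusted p = 0.01082). The called genes thus went both ways. Pou2af1, a coactivator of antibody genes, was 4.37, 3.86 and 4.34 in CHF lungs against 4.47, 6.23 and 5.60 in sham lungs and did not pass (adjusted p = 0.06384).

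Of 14 kept plasma cell and antibody secretion genes, 2 rose and 1 fell in the same comparison, again against 13% of all kept probe sets. Fcgrt, the receptor that recycles IgG, was 0.87 higher (adjusted p = 0.02906) and Ssr4, a subunit of the protein translocation machinery, was 0.78 higher (adjusted p = 0.02935). Pigr, which carries polymeric antibody across the airway epithelium, was 0.51 lower (adjusted p = 0.04685). Among the other kept genes of this list, Xbp1 differed by -0.01, Prdm1 by -0.38 and Sdc1 by 0.47 (limma adjusted p = 0.976, 0.5046 and 0.1494). Which cells of the whole lung gave these signals was not tested, so they do not stand for plasma cells alone. Tnfrsf17, Eaf2 and Tram2 of this list stayed below the filter, with highest values of 3.43, 2.94 and 2.92. Mzb1 differed by 0.44 (adjusted p = 0.6097). It stayed under 4, near background, in every lung of this comparison, so nothing is read from it. The 1 measured gene of the immunoglobulin chain list, Iglc1, a light chain, differed by 0.37 (adjusted p = 0.676). 0 of the 7 calls on these lists remained when the 3 lungs with cardiomyocyte RNA were left out, a fit with 1 sham ketotifen lung. In CHF against sham lungs with placebo limma called 0 of the 31 genes of the lists, with 11 at an unadjusted p under 0.05. Of all kept probe sets 0.169% were called there and 20.1% had such a p. With ketotifen against placebo in CHF rats, Cd83 alone of these genes was called (2.14 higher, adjusted p = 0.03719), where 1.22% of all kept probe sets were. There 3 of 16 B cell and 5 of 14 plasma cell genes had an unadjusted p under 0.05, against 17.1% of all. Bank1 and Mzb1 differed by -2.43 and -1.98 and did not pass (limma adjusted p = 0.09096 and 0.101). Mzb1 had 2.39, 3.94 and 2.31 with ketotifen, near background, against 5.32, 4.95 and 4.30 with placebo. With ketotifen against placebo in sham rats 0 of 31 were called, with 5 at an unadjusted p under 0.05, against 14% of all kept probe sets.

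**Figure D4:**
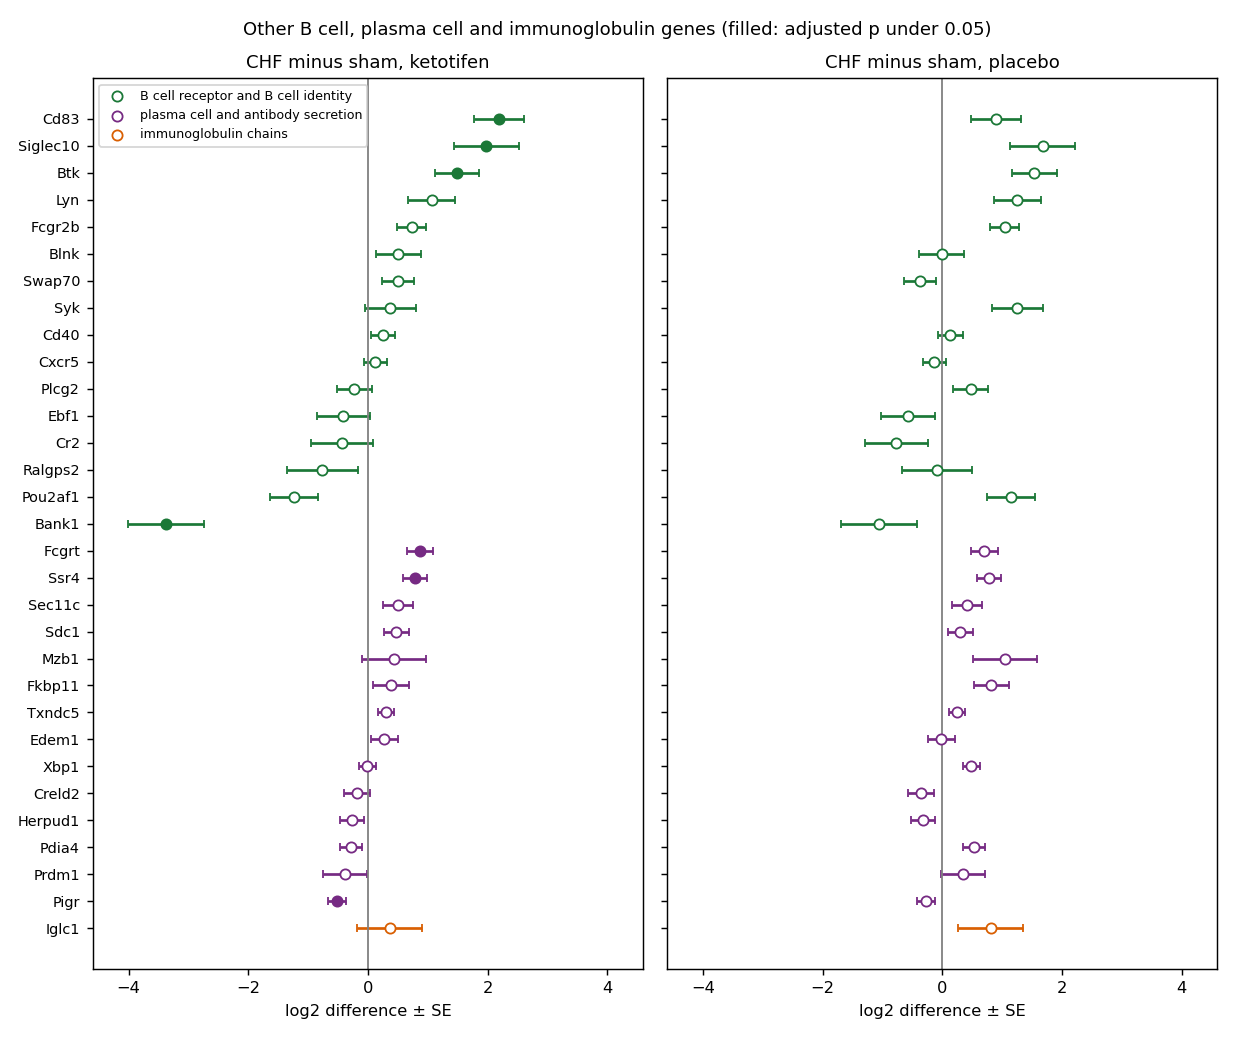
Log2 differences with standard errors of the limma fit for the kept genes of the B cell, plasma cell and immunoglobulin chain lists, CHF minus sham lungs with ketotifen (left) and with placebo (right), 3 against 3 lungs. Filled points passed an adjusted p under 0.05, which 7 genes did with ketotifen and none did with placebo.

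The members were also compared among themselves. The 2 Jchain probe sets correlated at r = 0.94 over the 12 lungs and at 0.92 once each group was centred on its own mean. Ighl2 and the brighter Jchain probe set correlated at 0.77 over the 12 lungs but at -0.14 within groups, so their likeness lay in the group means. Both genes were chosen by the same difference between groups, so this likeness is partly built in. Fcrla and Ighl2 correlated at 0.22. These values describe 12 arrays of 4 groups and carry no p. By the same measure, the non-member genes most like Ighl2 were Zdhhc3 (0.90), Irak2 (0.86) and the hemoglobin gene Hba-a3 (0.85), and those most like Fcrla were Car2 (0.92), Rars1 (0.89) and Mrpl14 (0.89). Ercc3 (0.89), Glrx5 (0.88) and Wdr91 (0.87) were most like Jchain, and Smad1 (0.94), Dact3 (0.92) and Ighvl1 (0.91) most like Ms4a1. Each value is that of the best probe set of its gene over 12 lungs. They are the highest out of 13032 kept probe sets with a single symbol, less the members and provisional symbols. Other probe sets of the same gene can differ. Another Zdhhc3 probe set had 10.59, 10.38 and 10.13 in CHF placebo lungs, against 10.30, 10.36 and 10.41 in sham placebo lungs. Ighvl1, an antibody variable gene by its symbol, did not share the order of Ighl2: it had 7.42, 6.98 and 7.53 in CHF ketotifen lungs, 6.08, 7.85 and 7.60 in CHF placebo lungs, 8.32, 9.83 and 7.30 in sham ketotifen lungs, and 6.50, 7.82 and 7.52 in sham placebo lungs.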

How the data were processed

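RNA from 12 whole lungs was hybridized to 1 Affymetrix array each, after one-cycle labelling per the labels' protocols. The authors deposited log2 values per probe set. Per the submitters' processing notes they used GCRMA and R 2.5.0, with no other setting given in the sources used here. The number of arrays limits the precision. Each p-value sets a difference between groups against the spread of lungs within groups. That spread is pooled over the 4 groups and moderated by a trend over all kept probe sets.

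Groups came from the source names. The 57 control probe sets were left out, and 16536 of 31042 probe sets with a log2 value of at least 4 in at least 3 arrays were kept. One limma 3.58.1 fit in R 4.3.3 of all 12 arrays held 4 group means, with an intensity trend, two-sided tests and Benjamini-Hochberg adjustment over all kept probe sets at 0.05. It was tested on simulated data.

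The members and gene lists were chosen with earlier results of these data known. All member probe sets are named, and from other lists up to 4 genes of smallest p. Pou2af1, Xbp1, Mzb1, Prdm1, Sdc1, Tnfrsf17, Eaf2, Tram2 and the surfactant genes were added after their values were seen. Members were not tested in CHF against sham with placebo. The design also planned a test of the members in the interaction of surgery and drug. It was run, and its p-values were then left out because that term contains the comparison that chose the members, a decision made after the values were seen. Replicate numbers did not pair the lungs: 5 of 18 same-number pairs had a correlation of deviations over 0.1 (-0.347 to 0.263). Alternatives were filters, trend, array weights, quantile normalization, the replicate block, fits of fewer groups and leaving out lungs.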

Additional observations from a re-analysis of the deposited data

Results flagged for a closer look

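The brighter Fcrla probe set was singled out because its surgery effect differed between the drug arms. CHF lungs were 2.93 log2 units higher than sham lungs with placebo and -0.77 apart with ketotifen, so that the interaction was -3.70. It was picked out by the interaction term of the fit. That term contains the comparison that chose Fcrla, so no p is given and the value stands as a description. It lay between -4.04 and -3.17 over all alternatives. Groups of 3 lungs were too small to look for single outlying lungs.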

How the results depend on the processing

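The counts here are of the 31 kept genes of the B cell, plasma cell and immunoglobulin chain lists. The planned array weights, at limma's default, called 24 of them in CHF against sham with placebo (main 0), 11 in CHF against sham with ketotifen (main 7), 16 in ketotifen against placebo in CHF (main 1), 10 in ketotifen against placebo in sham (main 0) and 8 in the interaction (main 0). That estimate did not converge and gave sham placebo 3 a weight of 35.1. Weights estimated gene by gene were added after those counts were seen, and called 11, 11, 13, 1 and 3 in the same order. The cause of these differences was not tested. For the drug in CHF both kinds of weights brought Ighl2 (adjusted p = 0.002859 and 0.008459), the dimmer Jchain probe set (0.0001143 and 0.0004985) and the brighter one (0.00168 and 0.005727) past the threshold, and for CHF against sham with ketotifen the brighter one too (0.04121 and 0.04467). The default weights alone also did so for Fcrla with the drug in CHF (0.02376) and the brighter Jchain probe set with the drug in sham (0.03419). In CHF against sham with ketotifen, no filter gave 2, averaging CHF ketotifen 1 and 3 gave 2, leaving out the 3 lungs of largest actin difference gave 4, and leaving out the 3 with cardiomyocyte RNA gave 0. In ketotifen against placebo in CHF the 1 call was lost (0) with no filter, the replicate block, only 2 groups, averaged arrays, and either set of 3 lungs left out. Leaving out 1 lung gave 0 to 9 calls with placebo, 2 to 8 with ketotifen, 0 to 3 for the drug in CHF, 0 for the drug in sham and 0 to 1 for the interaction. Without sham placebo 1, 9 list genes were called with placebo.

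Of all kept probe sets, the calls over all settings ranged between 0 and 8291 (main 28) with placebo, 43 and 4275 (main 2145) with ketotifen, 60 and 5576 (main 201) for the drug in CHF, 0 and 3747 (main 14) for the drug in sham, and 2 and 3169 (main 61) for the interaction.

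The Ighl2 call with ketotifen held in 10 of 11 settings and in all 12 runs without 1 lung (1.62 to 2.21). The Fcrla call in sham rats was lost with no filter (0.06762), the replicate block (0.05357), only 2 groups (0.1467), averaged arrays (0.06231) and either set of 3 lungs left out (0.9999 and 0.9823). Without the actin lungs 1 sham placebo lung was left, and without the cardiomyocyte lungs 1 sham ketotifen lung, each assumed to vary like the other groups, so these fits say little. The replicate block also brought both Jchain results named in the report past the threshold, and the numbers do not pair the lungs.

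Some uncalled values changed sign. Ms4a1 in CHF against sham was -0.39 without sham placebo 1, and with ketotifen 0.10 without sham ketotifen 2 or the 3 lungs of largest actin difference and 0.38 without those with cardiomyocyte RNA. For the drug in CHF, Ms4a1 was 0.14 and 0.15 without CHF placebo 2 and 3 and 0.29 without CHF ketotifen 2. For the drug in sham, the dimmer Jchain probe set was 0.0152 after quantile normalization, 0.44 and 0.35 without the actin or cardiomyocyte lungs, 0.14 and 0.16 without sham placebo 2 and 3 and 0.29 without sham ketotifen 1, and Ighl2 was 0.21 and 0.0703 without the actin or cardiomyocyte lungs. In the interaction, Cd37 was 0.0022 with the default weights, and 0.19 and 0.14 without the actin or cardiomyocyte lungs, and the brighter Jchain probe set was 0.0308 without sham placebo 1. Over all runs without 1 lung, these ran for Ms4a1 between -0.39 and 0.85 with placebo, -1.56 and 0.10 with ketotifen and -0.57 and 0.29 for the drug in CHF, for the dimmer Jchain probe set between -0.37 and 0.29 for the drug in sham, and for the brighter one between -0.86 and 0.0308 in the interaction. The antibody minus surface difference stayed between 1.29 and 1.92 with placebo and between 1.37 and 2.54 with ketotifen.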
